A study of Mus musculus with 101 samples.

Results

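The results concern subcutaneous fat of Inhbe knockout (KO) and wild-type (WT) mice fed chow or a high-fat diet (HFD), and the extent to which the response to the diet differed between the genotypes. They rest on 30 of the series' 101 RNA-seq libraries: 8 from WT mice on chow, 7 from KO mice on chow, 7 from WT mice on HFD and 8 from KO mice on HFD. All mice were male and on a C57BL/6NTac background, and the labels give no other allele or treatment. For the kind of Inhbe allele, the ages and the time on the diet, the sources used here give nothing. Libraries of 1 group are labelled as biological replicates. The remaining libraries are epididymal fat of the same 4 groups and fat of mice given a viral vector for Inhbe or for GFP.

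For each gene the difference between KO and WT on chow was subtracted from the difference between KO and WT on HFD. This interaction, in log2 units, equals the diet response in KO minus the diet response in WT. A negative value therefore stands for a gene that HFD raised less, or lowered more, in KO than in WT, and a positive value for the reverse. A gene was called where edgeR's quasi-likelihood test gave a Benjamini-Hochberg adjusted p under 0.05 over all 14220 genes tested, and every adjusted p below comes from that test, adjusted over the genes tested in its own comparison. Levels are in CPM, a gene's counts scaled to a common library size, and an error after ± is a standard error. In bulk tissue, fewer cells of a type and less RNA per cell cannot be told apart.

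Inhbe encodes the subunit of activin E, a member of the TGF-beta family that is made mainly by the liver and released into the blood. Activin E acts on fat cells through the receptor ALK7, encoded by Acvr1c, which signals through SMAD2 and SMAD3 and restrains the breakdown of stored fat. Subcutaneous fat takes up surplus lipid under HFD by enlarging its fat cells, and in that course remodels its matrix and vessels, gains macrophages and loses part of its lipogenic and oxidative expression.

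The library totals ran from 13634565 to 17676245 estimated counts, so that a floor of 3 counts stood at 0.17 to 0.22 CPM. Inhbe itself had 0 counts in 28 libraries, 5 counts in WT HFD replicate 6 and 1 count in KO HFD replicate 2, so these libraries cannot check the genotype. The fat cell genes Adipoq, which encodes adiponectin, and Plin1, which coats lipid droplets, stood at a minimum of 1080 and 444 CPM before scaling in any library. Of the other tissues that a fat pad can carry, the epididymis list summed to at most 1.13 CPM. The lymph node list summed to 9.77 to 1150 CPM. Its mean log2 score was 0.727 to 0.92 in WT chow replicate 1 and WT HFD replicates 1, 2 and 4, against 4.31 to 6.18 in the other 26 libraries. Before scaling, albumin reached 160 CPM in WT HFD replicate 6 and 325 CPM in KO HFD replicate 2, and 10 of the 14 genes of the liver list were too low to be tested. WT HFD replicates 3 and 6 stood apart on the second principal component, and WT chow replicates 6 and 7 in the interferon-inducible Slfn4 and the cytokine Il1b. The tests in subcutaneous fat were repeated without these libraries, as part of 41 alternative fits for each gene, 30 of which left out a single library.

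The 250 bases before the start of 4 genes are shown because they stand for the opposite interactions described below. Ubd and Fam83d were among the most strongly called genes that HFD raised in WT and raised less or not detectably in KO. Cyp2e1 and Cyp2f2 had the smallest p of the genes with a positive interaction. The sequences are RefSeq's for GRCm38.p6, all 4 on the plus strand, and lie at chr17:37193642-37193891, chr2:158767849-158768098, chr7:140763569-140763818 and chr7:27119705-27119954. Capitals mark in Ubd a core shared by many NF-kappa B sites, GGG and TTTCC with any 2 bases between them, and in Fam83d and Cyp2e1 the TATA box letters TATAAA, while Cyp2f2 holds neither.
Ubd: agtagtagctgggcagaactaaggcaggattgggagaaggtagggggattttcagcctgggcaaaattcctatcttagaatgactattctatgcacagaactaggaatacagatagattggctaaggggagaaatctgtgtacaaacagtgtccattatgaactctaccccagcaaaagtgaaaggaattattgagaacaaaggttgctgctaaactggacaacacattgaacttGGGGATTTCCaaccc
Fam83d: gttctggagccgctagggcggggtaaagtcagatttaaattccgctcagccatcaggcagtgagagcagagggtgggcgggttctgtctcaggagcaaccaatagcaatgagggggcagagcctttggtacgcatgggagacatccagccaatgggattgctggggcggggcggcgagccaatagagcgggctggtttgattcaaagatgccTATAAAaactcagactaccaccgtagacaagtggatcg
Cyp2e1: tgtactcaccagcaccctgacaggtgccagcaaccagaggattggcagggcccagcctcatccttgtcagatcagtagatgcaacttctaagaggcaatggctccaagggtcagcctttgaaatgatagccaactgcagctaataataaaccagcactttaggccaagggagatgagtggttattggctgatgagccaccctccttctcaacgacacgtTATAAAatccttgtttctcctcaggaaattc
Cyp2f2: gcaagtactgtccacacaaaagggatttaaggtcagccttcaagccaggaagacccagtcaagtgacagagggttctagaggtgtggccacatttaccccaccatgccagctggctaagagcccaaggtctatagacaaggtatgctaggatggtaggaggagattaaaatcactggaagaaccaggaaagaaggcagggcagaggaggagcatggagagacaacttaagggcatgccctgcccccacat

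Searched on both strands of such windows, the NF-kappa B core was in 1.47% of the 14331 promoters of 11252 tested genes, in 2.05% of 244 promoters of genes with a negative interaction and in 1.92% of 52 promoters of genes with a positive one. TATAAA was in 6.83, 5.33 and 15.4% of the same 3 sets, which is 8 of the 52 promoters in the last. TTNNGNAA, a core of sites bound by C/EBP factors, was in 29.3, 29.1 and 36.5%, and CAGACA, which holds a SMAD box, was in 13.7, 18.0 and 19.2%. In the 4 windows shown TTNNGNAA and CAGACA had 0 matches, and a match describes letters only.

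HFD changed expression broadly in WT fat and less in KO fat. It changed 6276 genes in WT (44.1% of those tested, 3213 up, 22.6%, and 3063 down, 21.5%) and 2948 in KO (20.7%, 1661 up, 11.7%, and 1287 down, 9.05%). Over the 6276 genes called in WT, the response in KO had the same sign for 93.2% and a median of 0.524 times that in WT (quartiles 0.305 and 0.762). Those genes were picked on the WT response, which favours a large value there. Over the 2948 genes called in KO, the WT response had the same sign for 96.5% and a median of 1.10 times the KO response (quartiles 0.727 and 1.46). The median interaction over all genes was 0.00614.

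The interaction itself was called for 304 genes (2.14%), and for 2075 the unadjusted p was under 0.05. It was negative for 249 (1.75%) and positive for 55 (0.387%). For 157 of them the responses differed at least 2-fold, 118 negative and 39 positive. By comparison, KO differed from WT in 36 genes on chow (0.253%) and in 2688 genes on HFD (18.9%, 1041 higher, 7.32%, and 1647 lower, 11.6%). The number of interactions called depended on the libraries: it was 198 without KO chow replicate 1, 548 without WT HFD replicate 5 and 754 without WT HFD replicates 3 and 6, the last chosen after the data were seen. All 304 kept their sign in each of these fits, and 195, 303 and 283 of them were called. They were picked on the interaction in these same libraries, which favours a kept sign.

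**Figure D1:**
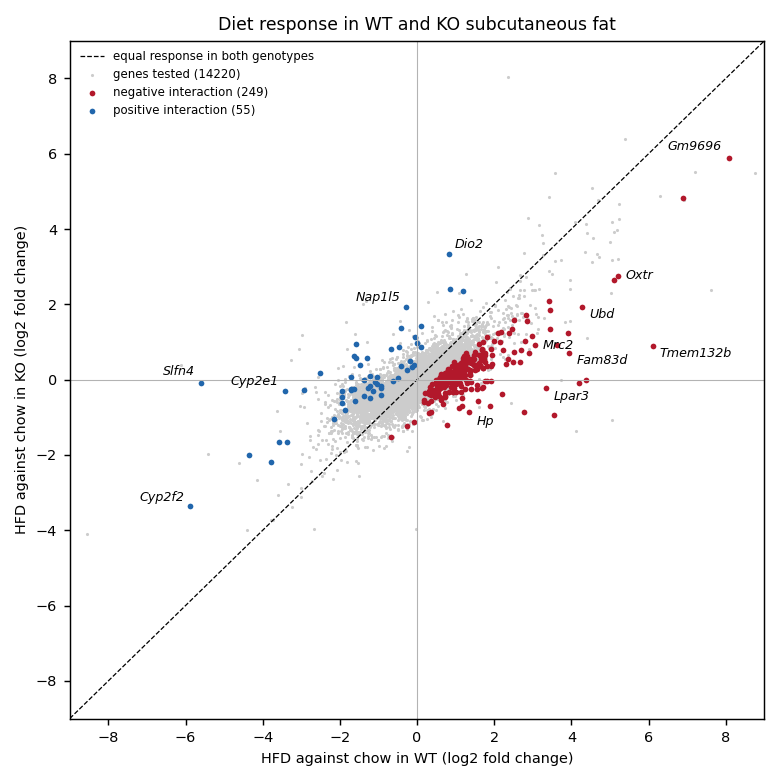
Log2 fold change of HFD against chow in KO (vertical axis) plotted against that in WT (horizontal axis), with 1 point per gene and a dashed line at equal responses. Most of the 249 genes with a negative interaction (red) lie to the right of 0 and below the line, and most of the 55 with a positive interaction (blue) to the left of 0 and above it.

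Genes with a negative interaction were mainly genes that HFD raised in WT and left near their chow level in KO. Over the 249, the median diet response was 1.12 in WT (quartiles 0.775 and 1.64), where 240 were called higher, and 0.114 in KO, where 62 were called higher and 19 lower. By pattern, 168 were raised in WT only, 62 in both genotypes, 10 were called in opposite directions, 8 were lowered in KO only and 1 was lowered in both. KO and WT hardly differed in them on chow (median −0.021, with 3 called higher and 3 lower) and differed on HFD (median −0.924, with 241 called lower). For 189 of the 249, every KO HFD library lay below every WT HFD library, which held for 3.64% of all genes tested. The difference on HFD is a term of the interaction that picked these genes, which favours such a separation, so this share is a description only.

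Genes with a positive interaction were mainly genes that HFD lowered in WT. Over the 55, the median diet response was −1.23 in WT, where 42 were called lower and 2 higher, and −0.0492 in KO, where 16 were called higher and 11 lower. Of them 28 were lowered in WT only, 11 in both genotypes, 11 were raised in KO only, 2 were raised in both and 3 were called in opposite directions. The KO to WT difference had a median of 0.118 on chow and 1.30 on HFD, where 52 were called higher. Every KO HFD library lay above every WT HFD library for 42 of the 55, against 2.91% of all genes tested. Here too the picking on the interaction favours such a separation.

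Among the negative genes the smallest p belonged to Hp, haptoglobin, a secreted protein that binds free haemoglobin and rises in the acute phase (chr8:109575128-109579172). Hp was at 1026 to 1823 CPM in WT on chow (median 1399) and 789 to 1464 in KO on chow (1097). On HFD it was at 1908 to 5277 in WT (3720) and 460 to 740 in KO (648). All 7 WT HFD libraries lay above, and all 8 KO HFD libraries below, every other library. HFD raised Hp by 1.34 ± 0.16 in WT and lowered it by 0.85 ± 0.16 in KO (log2 −0.85). The interaction was −2.19 ± 0.23 (adjusted p 1.93e-06). Liver is the main source of haptoglobin in blood. Albumin, the main liver transcript, had a median of 80.8 CPM in KO and 28.1 in WT on chow, and of 101 in KO and 8.59 in WT on HFD. Without the 2 libraries with the most albumin the Hp interaction was −2.22.

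Of other genes for proteins of innate defence, Lrg1 and Tril were among the smallest p, while Lbp and Cfb were chosen after their values were seen. Lrg1, a leucine-rich glycoprotein of blood plasma, was at 99.5 to 214 CPM in WT and 76.4 to 128 in KO on chow, 183 to 501 in WT on HFD and 43.8 to 70.5 in KO on HFD. The KO HFD libraries lay below all others, and the interaction was −1.85 ± 0.23 (adjusted p 1.3e-05). Lbp, which carries bacterial lipopolysaccharide to its receptor, was at 26.2 to 96.3 CPM in the chow libraries, 242 to 599 in WT on HFD and 56.9 to 118 in KO on HFD (interaction −1.89 ± 0.29, adjusted p 0.000239). WT HFD libraries lay above all others. Tril, an accessory of Toll-like receptors, had 27.5 to 59.0 CPM in WT on HFD and at most 19.3 CPM elsewhere (−1.45 ± 0.20, adjusted p 4.34e-05). Cfb, complement factor B, was at 146 to 214 CPM in KO on HFD, below every other library (lowest 254), with an interaction of −0.90 ± 0.15 (adjusted p 0.000756).

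Ubd, also called FAT10, is a ubiquitin-like modifier induced by inflammatory cytokines. It was at 7.40 to 11.2 CPM in WT and 4.92 to 13.0 in KO on chow, 108 to 296 in WT on HFD (median 172) and 19.4 to 42.7 in KO on HFD (median 31.2). The HFD groups overlapped neither each other nor the chow groups. HFD raised Ubd in both genotypes, by 4.27 in WT and 1.94 in KO, and the interaction was −2.33 ± 0.26 (adjusted p 4.98e-06). Fam83d, known for its part in spindle positioning, was at 6.49 to 18.5 CPM in WT on HFD and at 0.328 to 1.90 in every other library (−3.21 ± 0.37, adjusted p 5.66e-06). Both genes, whose upstream sequences are printed above, were called in all 41 fits, as were Hp, Lrg1, Lbp, Tril and Cfb.

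**Figure D2:**
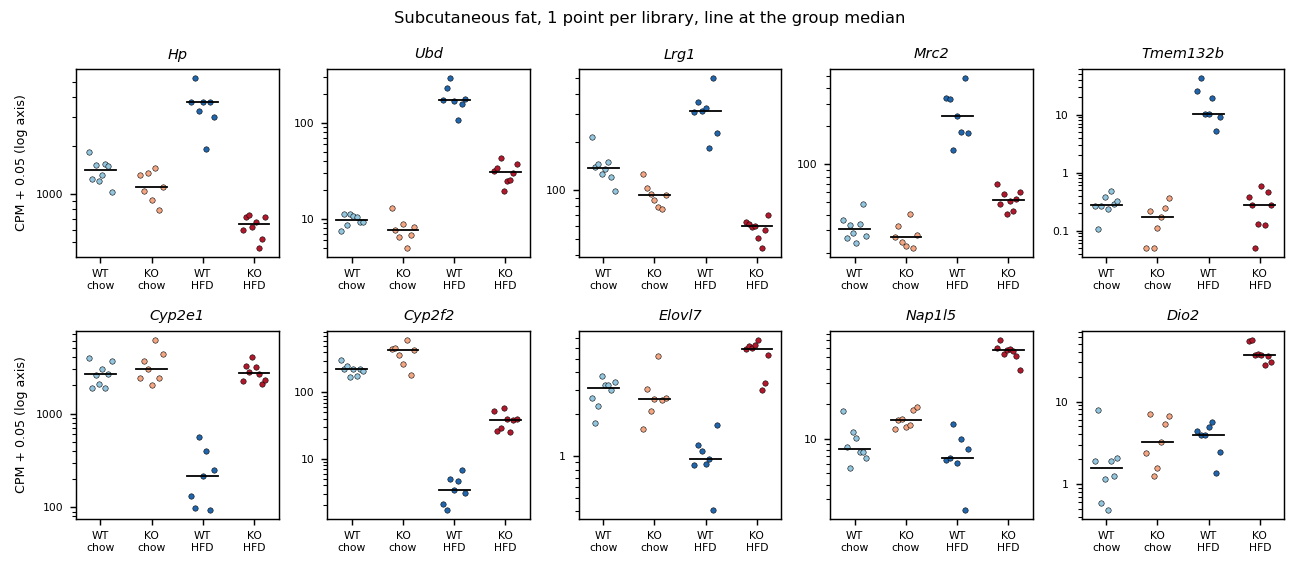
Level of 10 genes in each subcutaneous library, in CPM plus 0.05 on a log axis, with 1 point per library, 4 groups per panel and a line at the group median. In the first 5 panels the WT HFD group is highest, and in the panels of Cyp2e1 and Cyp2f2 it is lowest, while Nap1l5 and Dio2 are high in KO HFD only.

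The acute-phase list as a whole was mixed. Of its 10 tested members 2 had a called negative interaction and 0 a positive one, with a median of −0.616. Over all genes tested 1.75% were called negative and 0.387% positive. The second called member was Orm1, orosomucoid, with an interaction of −0.91 ± 0.25. It stood higher in KO than in WT on chow (41.4 to 124 in WT and 104 to 208 CPM in KO) and reached 124 to 244 CPM in WT and 141 to 196 CPM in KO on HFD. HFD raised it by 1.02 in WT, and its response in KO was 0.12 (adjusted p 0.676). Its call held in 26 of 41 fits. Trf, transferrin, the iron carrier of plasma, was lowered by HFD in KO only. It was at 1183 to 2999 CPM in the chow libraries and 1512 to 2353 in WT on HFD, against 544 to 793 in KO on HFD (interaction −1.03 ± 0.19, adjusted p 0.00143, called in 41 of 41 fits). Other iron genes, chosen after their values were seen, were Tfr2, a transferrin receptor (−2.10 ± 0.33), and Hfe, a regulator of iron uptake (−0.68 ± 0.16), both raised by HFD in both genotypes and more in WT.

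Calls among lysosomal genes were negative, as were 249 of the 304 calls over all genes tested (1.75% negative and 0.387% positive). Of 17 tested members of the lysosome list 15 had an interaction below 0, 3 were called negative and 0 positive, with a median of −0.276. HFD raised 11 of the 17 in WT (median diet response 0.573) and 7 in KO (median 0.174), against 22.6 and 11.7% of all genes. Among the called members were Ctsl and Ctsd, which encode the proteases cathepsin L and D.

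Ctsl was at 247 to 396 CPM in WT and 272 to 340 in KO on chow, 723 to 1119 in WT on HFD (median 977) and 306 to 437 in KO on HFD (median 365). Every WT HFD library exceeded every other library, and the interaction was −1.25 ± 0.15 (adjusted p 6.74e-06). Ctsd was at 591 to 938 CPM in the chow libraries, 1606 to 3321 in WT on HFD and 1052 to 1365 in KO on HFD. Its interaction was −1.07 ± 0.17 (adjusted p 0.000345), and it was raised in both genotypes. The calls for Ctsl and Ctsd held in 41 of 41 fits.

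Lysosomal hydrolases outside the list were picked from the called genes with a negative interaction, so their direction adds no support to the list. Glb1, the beta-galactosidase, had an interaction of −0.69 ± 0.14, Gusb, the beta-glucuronidase, −0.62 ± 0.13, and the cathepsin gene Ctsf −0.80 ± 0.17. Galns, which removes sulfate from glycosaminoglycans, had −0.82 ± 0.19 and Gm2a, the ganglioside activator, −0.67 ± 0.15. Naglu, Man2b1 and Neu1, which trim heparan sulfate, mannose and sialic acid, were called with −0.59, −0.69 and −0.53 but passed in only 19, 28 and 27 of 41 fits. Smpdl3a, a phosphodiesterase related to acid sphingomyelinase that was named for its small p, was at 133 to 165 CPM in WT on HFD and 70.4 to 101 in all other libraries (−0.79 ± 0.10, adjusted p 3.19e-05).

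Macrophages are rich in lysosomes, and the markers of lipid-associated macrophages moved with the diet as well. Of 14 tested genes of lipid-associated macrophages, the type that gathers around dying fat cells, 0 had an interaction called by edgeR, 5 had an unadjusted p under 0.05, 13 were below 0 and the median was −0.677. Without WT chow replicates 6 and 7, left out after the data were seen, 4 of them were called, all negative. Without the 4 libraries low in lymph node transcript 0 of the 14 were called, with a median of −0.301. HFD raised 11 of the 14 in WT and 6 in KO, against 22.6 and 11.7% of all genes. On HFD 9 of the 14 were called lower in KO than in WT and 0 higher (median −1.13), against 11.6 and 7.32% of all genes. On chow 0 were called lower in KO and 1 higher. The summed level of that list ran from 6970 to 11700 CPM in WT and 10200 to 14700 in KO on chow, and from 5080 to 18100 in WT and 15800 to 18800 in KO on HFD, so the groups overlapped on each diet. Most of that sum is Lpl, a lipase that fat cells express as well, at a mean of 12279 CPM. Gpnmb, a marker of these cells, was at 90.5 to 479 CPM in WT on HFD and 23.3 to 143 elsewhere, with an interaction of −1.56 ± 0.54 (adjusted p 0.132). Resident macrophage genes gave 0 interaction calls among 15 tested (2 with an unadjusted p under 0.05, median −0.228). Without the 4 libraries low in lymph node transcript their median was 0.239. HFD raised 1 and lowered 3 of the 15 in WT, and raised 0 and lowered 1 in KO. Over all genes it raised 22.6% and lowered 21.5% in WT, and raised 11.7% and lowered 9.05% in KO. On HFD 6 of the 15 were called lower in KO than in WT and 0 higher. The part of macrophage transcripts in the lysosomal interaction was not tested.

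The 2 collagens called were negative, beside 1.75% of all genes called negative and 0.387% called positive. Among 17 tested collagens 16 were below 0, with a median of −0.539. Called were Col4a2 of the basement membrane (−1.05 ± 0.27, adjusted p 0.0354) and Col15a1 (−0.93 ± 0.26, adjusted p 0.0479). Col4a2 was at 489 to 929 CPM in the chow libraries, 901 to 4274 in WT on HFD and 948 to 1424 in KO on HFD, so the HFD groups overlapped. HFD raised 12 collagens in WT and 4 in KO, against 22.6 and 11.7% of all genes. These 2 calls held in 28 and 12 of 41 fits: neither passed without the 2 libraries with liver transcript, while without WT HFD replicates 3 and 6 there were 5 collagen calls, all negative.

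Genes for proteins that modify and process collagen were picked from the called genes after their values were seen. Pcolce2, an enhancer of procollagen cleavage, was at 191 to 359 CPM in WT on HFD and 27.3 to 118 in all other libraries (−1.97 ± 0.33, adjusted p 0.000549). Adamts2, which removes the N-propeptide of procollagen, was at 148 to 280 CPM in WT on HFD and 71.5 to 132 elsewhere (−1.10 ± 0.20, adjusted p 0.00174). Plod3, a lysyl hydroxylase of collagen, had −0.82 ± 0.18, and the secreted proteases Htra1 and Htra3 had −0.87 ± 0.18 and −1.31 ± 0.23. All 5 were called in 41 of 41 fits. Plod2 (−1.06 ± 0.24) was called in 40, failing without the 4 libraries low in lymph node transcript (adjusted p 0.085), and P3h1 (−0.73 ± 0.20) in 14.

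Of 21 tested matrix proteins and enzymes only Eln, elastin, was called (−1.16 ± 0.21, adjusted p 0.00174), against 2.14% of all genes. In that list 16 were below 0, with a median of −0.378. The median was −0.0323 without the 4 libraries low in lymph node transcript and −0.0685 with a covariate for that transcript. Eln was at 62.8 to 111 CPM in the chow libraries, 88.3 to 192 in WT on HFD and 46.2 to 70.5 in KO on HFD. Fbln5, chosen after its value was seen and needed for elastic fibre assembly, was at 102 to 154 CPM in WT on HFD and 37.3 to 71.6 in every other library (−0.81 ± 0.17, adjusted p 0.00588). Mrc2, an endocytic receptor that takes up collagen for breakdown, showed the same with a wider gap: 130 to 483 CPM in WT on HFD, 40.7 to 69.4 in KO on HFD and 21.7 to 48.5 on chow. HFD raised Mrc2 by 3.06 in WT and 0.92 in KO, and the interaction was −2.14 ± 0.29 (adjusted p 4.34e-05).

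Calls among endothelial markers were negative too, as were 249 of the 304 calls over all genes tested (1.75% negative and 0.387% positive). Of 13 tested endothelial markers 12 were below 0 (median −0.481), 4 were called negative and 0 positive. HFD raised 8 of them and lowered 1 in WT, and raised 1 and lowered 1 in KO. Over all genes it raised 22.6% and lowered 21.5% in WT, and raised 11.7% and lowered 9.05% in KO. Egfl7, a protein secreted by endothelium, was at 25.1 to 35.3 CPM on chow, 36.4 to 61.0 in WT on HFD and 23.6 to 33.4 in KO on HFD. WT HFD libraries lay above all others, and its interaction of −0.74 ± 0.14 (adjusted p 0.00349) was called in 41 of 41 fits. Esam and Tie1, an adhesion molecule and a receptor kinase of endothelium, had −0.89 ± 0.21 and −0.79 ± 0.20, and Cldn5, the claudin of endothelial tight junctions, had −1.07 ± 0.28. These 3 passed in 40, 32 and 28 of 41 fits.

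Endothelial genes outside the list, added after their values were seen, included Sox18, a transcription factor of vessels, at 28.8 to 66.5 CPM in WT on HFD and 15.4 to 26.4 elsewhere (−1.09 ± 0.20, adjusted p 0.00174). Ramp2, a partner of the adrenomedullin receptor, had −1.02 ± 0.18, the adhesion molecules Icam2 and Mcam −0.96 ± 0.22 and −1.03 ± 0.23, and Gja5, a gap junction protein of arteries, −1.03 ± 0.27. Tie1, Esam and Sox18 were highest in WT HFD replicate 6, at 147, 149 and 66.5 CPM. Without WT HFD replicates 3 and 6, which stood apart, 6 of the 13 list members were called, all negative, against 4 with them, 4 without the 2 libraries with liver transcript and 2 without WT chow replicates 6 and 7.

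**Figure D3:**
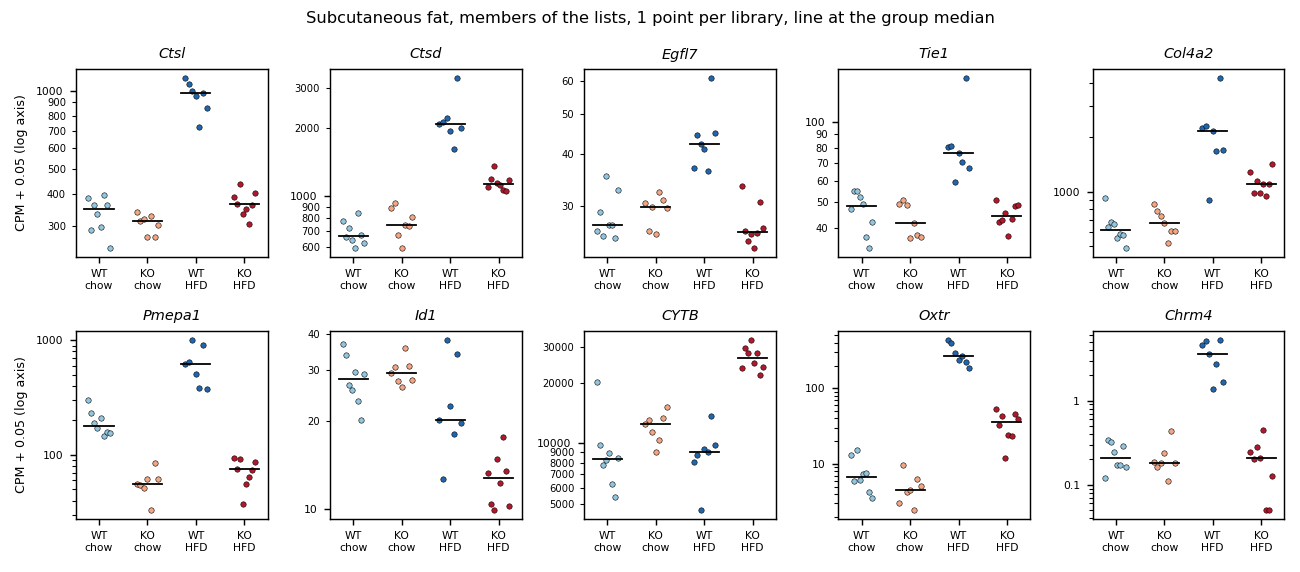
Level of 10 genes in each subcutaneous library, in CPM plus 0.05 on a log axis, with 1 point per library and a line at the group median. Oxtr and Chrm4 were chosen after their values were seen, and the other genes are members of the lists. Ctsl, Egfl7 and Chrm4 show a WT HFD group that does not overlap the others, Pmepa1 is lower in KO on both diets, and CYTB is highest in KO on HFD.

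The pathway of the deleted ligand was described from lists of receptors, ligands and SMAD2/3 targets, read against the 2.14% of all genes that were called. Acvr1c, which encodes ALK7, was at 138 to 491 CPM in WT and 243 to 354 in KO on chow, 45.4 to 221 in WT on HFD and 301 to 414 in KO on HFD. The 8 KO HFD libraries lay above the 7 WT HFD libraries, while the chow groups overlapped. Its interaction of 0.81 ± 0.32 was not called (adjusted p 0.206), and 2 of 41 fits called it. Among 12 tested receptors of the activin and TGF-beta family the only call was Acvrl1, the ALK1 receptor of endothelium (−0.62 ± 0.16, adjusted p 0.0278), which passed in 36 of 41 fits. Among 11 tested ligands and antagonists it was Fstl3, a secreted protein that binds activins, at 10.5 to 24.5 CPM in WT on HFD, 3.79 to 8.21 in KO on HFD and 1.91 to 5.91 on chow (−1.14 ± 0.29, adjusted p 0.0265, 39 of 41 fits).

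Of 16 tested SMAD2/3 feedback and target genes 2 were called negative and 0 positive, with a median of −0.108. Pmepa1, which dampens SMAD signalling and is itself a target of it, differed between the genotypes on both diets and more on HFD. It was at 147 to 302 CPM in WT and 33.0 to 85.6 in KO on chow, and at 374 to 1008 in WT and 37.2 to 94.3 in KO on HFD. WT and KO libraries did not overlap on either diet. HFD raised it by 1.70 in WT, the response in KO was 0.32 (adjusted p 0.313), and the interaction was −1.38 ± 0.31 (adjusted p 0.0111, 41 of 41 fits). Ltbp3, which holds latent TGF-beta in the matrix, had −1.02 ± 0.25 (adjusted p 0.0257, 38 of 41 fits).

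Of 10 tested targets of BMP-SMAD signalling 8 were below 0 (median −0.491), and Id1 and Hey1 were called, against 2.14% of all genes. Id1, an inhibitor of differentiation factors, was at 20.2 to 36.9 CPM in WT and 26.2 to 35.6 in KO on chow, 12.6 to 38.1 in WT on HFD and 9.84 to 17.6 in KO on HFD. HFD lowered it by 1.23 in KO (log2 −1.23), and its response in WT was −0.25 (adjusted p 0.232). The interaction was −0.97 ± 0.24 (adjusted p 0.0271). Hey1, a repressor that Notch and BMP9 induce in endothelium, had −0.76 ± 0.20 (adjusted p 0.038). Neither passed without the 2 libraries with liver transcript, where the values were −0.836 and −0.685, and Hey1 passed in 25 of 41 fits.

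Several receptors coupled to G proteins were among the called genes, a group assembled after the values were seen. Oxtr, the oxytocin receptor, was at 2.40 to 15.3 CPM on chow, 184 to 438 in WT on HFD (median 266) and 12.0 to 53.3 in KO on HFD (median 35.6). HFD raised it in both genotypes, by 5.21 in WT and 2.76 in KO, and the interaction was −2.45 ± 0.44 (adjusted p 0.00158). The HFD groups did not overlap.

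Lpar3, a receptor for lysophosphatidic acid, was at 4.05 to 13.4 CPM in WT on HFD and at most 1.10 in every other library (−3.57 ± 0.52, adjusted p 0.000101). Chrm4, a muscarinic acetylcholine receptor, was at 1.33 to 5.25 CPM in WT on HFD and at most 0.40 elsewhere, near the floor of 3 counts (−4.28 ± 0.70, adjusted p 0.000499). Vipr2, a receptor for vasoactive intestinal peptide, was at 1.80 to 6.80 CPM in WT on HFD and at most 1.17 elsewhere (−2.20 ± 0.37, adjusted p 0.000556). All 4 of these receptors were called in 41 of 41 fits.

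Smaller negative interactions were called for Ptger2, a prostaglandin E2 receptor (−1.11 ± 0.26), Gper1, a membrane oestrogen receptor (−1.38 ± 0.33), and Aplnr, the apelin receptor (−1.12 ± 0.31, adjusted p 0.0475, 15 of 41 fits). The reverse was seen for Drd1, a dopamine receptor, at 0.359 to 1.72 CPM in WT on HFD and 1.88 to 5.05 in all other libraries (1.43 ± 0.35, adjusted p 0.0222). Hrh2, a histamine receptor, and Mc5r, a melanocortin receptor, also had positive interactions, 1.37 ± 0.36 and 2.17 ± 0.60, which held in 22 and 16 of 41 fits. On a separate list of 12 antilipolytic receptors and their partners 0 were called by edgeR, and 3 had an unadjusted p under 0.05.

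Some of the largest negative interactions belonged to genes low or nearly silent outside WT on HFD. Tmem132b, a membrane protein, was at 5.10 to 42.9 CPM in WT on HFD (median 10.2) and at most 0.533 in the other 23 libraries (−5.22 ± 0.98, adjusted p 0.00208). Pramel13, of a gene family with many near copies, was at 2.15 to 7.51 CPM in WT on HFD and at most 1.64 elsewhere (−3.63 ± 0.59). Ogdhl, related to a subunit of oxoglutarate dehydrogenase, was at 1.33 to 7.11 CPM against at most 0.767 (−2.71 ± 0.63), and Cdkl4, a kinase, at 3.31 to 26.9 against at most 2.71 (−2.67 ± 0.59). Tmem132b and Pramel13 passed in 41 of 41 fits, Ogdhl in 39 and Cdkl4 in 40. In the other 23 libraries most values of Tmem132b and Ogdhl lie near the floor of 3 counts, as do those of Pramel13 in KO. This limits the precision of their fold changes. Cdkl4 was at 0.224 to 2.71 CPM in those 23 libraries, mostly above the floor.

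Cyp2e1 led the positive genes. It encodes a cytochrome P450 that oxidizes ethanol, ketones and fatty acids (chr7:140763819-140774990). Its level was 1878 to 3926 CPM in WT and 2036 to 6135 in KO on chow, 93.7 to 562 in WT on HFD (median 218) and 2081 to 4065 in KO on HFD (median 2716). All 7 WT HFD libraries lay below all other libraries, and KO on HFD overlapped both chow groups. HFD lowered Cyp2e1 by 3.44 in WT (log2 −3.44 ± 0.38), and the response in KO was −0.29 (adjusted p 0.528). The interaction was 3.15 ± 0.44 (adjusted p 6.35e-05).

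Cyp2f2, a P450 that acts on small aromatic compounds, was lowered by HFD in both genotypes. Its level was 172 to 305 CPM in WT and 181 to 621 in KO on chow, 1.65 to 6.83 in WT on HFD and 25.8 to 59.3 in KO on HFD. The HFD groups overlapped neither each other nor the chow groups. Its diet response was −5.88 in WT and −3.36 in KO, an interaction of 2.52 ± 0.35 (adjusted p 6.35e-05). Both P450 genes passed in 41 of 41 fits. They have close relatives in the genome, and how reads shared between relatives were counted is not given in the sources used here.

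A second set of positive genes was raised by HFD in KO only, 11 in all. Nap1l5, an imprinted gene related to nucleosome assembly factors, was at 5.53 to 17.2 CPM in WT and 12.1 to 18.5 in KO on chow, 2.37 to 13.2 in WT on HFD and 38.7 to 70.8 in KO on HFD (2.22 ± 0.32, adjusted p 9.98e-05). Ppp1r3b, which targets a phosphatase to glycogen and promotes its synthesis, was at 26.2 to 45.3 CPM in KO on HFD and 5.40 to 17.6 in every other library (1.32 ± 0.24, adjusted p 0.00146). It was the only call among 12 tested glycogen genes, against 2.14% of all genes, and 11 of the 12 were above 0 (median 0.277).

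Dio2, the deiodinase that activates thyroid hormone, was at 27.8 to 56.1 CPM in KO on HFD and at 0.431 to 7.76 in the other 22 libraries. HFD raised it by 3.34 in KO, the response in WT was 0.83 (adjusted p 0.131), and the interaction was 2.51 ± 0.62 (adjusted p 0.0253). It was the only call among 12 tested thermogenic genes, against 2.14% of all genes, and 11 of the 12 were above 0 with a median of 1.08. Ucp1, the uncoupling protein that defines brown fat, had an uncertain interaction of 3.42 ± 1.69 (adjusted p 0.348). Before scaling it stood at 83.4 CPM in WT chow replicate 2 and at most 10.9 CPM elsewhere. Without that library the Dio2 interaction was 1.80 (adjusted p 0.056), and it passed in 37 of 41 fits. Lncbate1, a long noncoding RNA of brown fat, was at 9.41 to 20.5 CPM in KO on HFD and 2.10 to 9.53 elsewhere (1.47 ± 0.28, adjusted p 0.00249, 41 of 41 fits).

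Further genes with a positive interaction act in lipid and amino acid metabolism, of which Ppara, Idh3b and Prodh were chosen after their values were seen. Elovl7, which lengthens fatty acids, was at 0.359 to 1.61 CPM in WT on HFD, 2.92 to 6.80 in KO on HFD and 1.52 to 5.17 on chow (2.52 ± 0.35, adjusted p 6.57e-05). Acsm3, which activates medium-chain fatty acids, was at 9.49 to 41.9 CPM on chow, 0.636 to 3.16 in WT on HFD and 5.35 to 10.3 in KO on HFD (1.91 ± 0.38, adjusted p 0.00439). Ppara, the nuclear receptor that drives fatty acid oxidation, was at 10.6 to 16.2 CPM in WT on HFD and 20.7 to 39.5 in KO on HFD (0.94 ± 0.23, adjusted p 0.0253, 37 of 41 fits). Gsta4, which clears the lipid peroxidation product hydroxynonenal, was at 4.83 to 11.8 CPM in WT on HFD and 11.6 to 44.6 elsewhere (1.40 ± 0.29, adjusted p 0.00607). Idh3b of the citrate cycle (0.66 ± 0.17) and Prodh of proline breakdown (1.06 ± 0.29) were called in 32 and 18 of 41 fits. In the lists themselves 0 of 20 fatty acid oxidation genes, 0 of 24 nuclear-encoded respiratory genes and 0 of 17 genes of branched-chain amino acid breakdown were called by edgeR, with 5, 3 and 6 at an unadjusted p under 0.05 and medians of 0.264, 0.0378 and 0.257.

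The 13 mitochondrially encoded genes all had an interaction above 0, from 0.483 for ND1 to 1.26 for ATP8, with a median of 0.934. CYTB and COX3, subunits of respiratory complexes III and IV, were the 2 called, against 2.14% of all genes. CYTB was at 5400 to 20140 CPM in WT and 9019 to 15130 in KO on chow, 4641 to 13710 in WT on HFD and 21890 to 32730 in KO on HFD (1.19 ± 0.30, adjusted p 0.0278). KO HFD libraries lay above all others. HFD raised all 13 genes in KO and 1 in WT, and all 13 were higher in KO than in WT on HFD. Together they made up 16.1 to 22.3% of the library total in KO on HFD and 5.57 to 15.1% in the other 3 groups. The TMM factors, which scale for such shares, averaged 0.879 in KO on HFD and 0.981 to 1.11 in the other groups. The number of calls among the 13 was 0 without the 4 libraries low in lymph node transcript, 5 without the 2 with liver transcript and 9 without WT HFD replicates 3 and 6, and all these were positive.

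Genes of fat storage and of related lipid and insulin pathways were described from 7 lists, read against the 2.14% of all genes that were called. Hilpda, which inhibits the lipase ATGL and is induced by fatty acids and hypoxia, was the only call among 19 genes of lipolysis. It was at 2.99 to 6.46 CPM on chow, 9.78 to 40.2 in WT on HFD and 3.94 to 6.97 in KO on HFD (−1.91 ± 0.32, adjusted p 0.000579, 41 of 41 fits). Slc25a1, the citrate carrier that feeds fatty acid synthesis, was the only call among 22 genes of lipogenesis (−1.13 ± 0.30, adjusted p 0.0377, 29 of 41 fits). Cers4, a ceramide synthase, was raised by HFD in WT and lowered in KO: 71.0 to 124 CPM in WT and 23.2 to 31.6 in KO on HFD, on either side of the 37.7 to 65.0 on chow (−1.31 ± 0.17, adjusted p 1.58e-05). Pltp, the phospholipid transfer protein, chosen after its value was seen, had −1.09 ± 0.19 (adjusted p 0.0014). Car3, a carbonic anhydrase abundant in fat cells, was the only call among 24 PPARG targets (0.80 ± 0.22, adjusted p 0.0459), and 16 of 41 fits called it. In triglyceride synthesis, fatty acid uptake, cholesterol synthesis and insulin signalling 0 of 15, 12, 19 and 17 genes were called by edgeR, with 2, 3, 5 and 3 at an unadjusted p under 0.05. Lep, leptin, was raised by HFD in both genotypes, to 3669 to 4577 CPM in WT and 2225 to 3848 in KO (interaction −0.96 ± 0.36, adjusted p 0.181).

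Single calls came from further lists, read against the 2.14% of all genes that were called. Hlf, a clock-controlled transcription factor, was at 11.4 to 22.2 CPM in WT on HFD and 21.6 to 52.7 elsewhere (1.04 ± 0.22, adjusted p 0.00702), the only call among 16 clock genes. Igfbp3, which binds IGF1 in plasma, was lowered by HFD in KO only, to 31.1 to 40.9 CPM against 34.8 to 105 elsewhere (−1.22 ± 0.23, adjusted p 0.00208), the only call among 14 genes of the growth hormone and IGF axis. Outside the lists, Irf4 and Met were chosen after their values were seen. Irf4, a transcription factor of fat cells and lymphocytes, was at 7.89 to 29.5 CPM in WT on HFD and 18.2 to 79.1 elsewhere (1.31 ± 0.30, adjusted p 0.0141). It failed without the 4 libraries low in lymph node transcript (1.02, adjusted p 0.078). Met, the receptor of hepatocyte growth factor, was at 10.3 to 48.3 CPM in WT on HFD and 94.4 to 118 in KO on HFD (1.12 ± 0.27, adjusted p 0.0227, 41 of 41 fits).

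Genes of antigen presentation were H2-D1, named by rule, and H2-K1, Tapbp and Nlrc5, chosen after their values were seen. H2-D1 and H2-K1, heavy chains of MHC class I, had negative interactions of −0.58 ± 0.14 and −0.69 ± 0.18, and Tapbp, which loads peptides onto them, −0.66 ± 0.18. H2-D1 was at 854 to 984 CPM in KO on HFD and 1009 to 1920 in all other libraries. Nlrc5, the transactivator of these genes, had a positive interaction of 0.71 ± 0.17, with 35.0 to 63.5 CPM in WT on HFD and 60.4 to 74.3 in KO on HFD. The fits that called them numbered 40, 29, 18 and 37 of 41 for H2-D1, H2-K1, Tapbp and Nlrc5. The class I genes are near copies of each other, so their counts are uncertain. Among 11 genes of MHC class II and 16 of the interferon response 0 were called by edgeR, with 1 and 3 at an unadjusted p under 0.05.

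The call for Slfn4 rested on a pair of libraries. Slfn4, an interferon-inducible gene of myeloid cells, had the largest positive interaction among the called genes, 5.51 ± 1.44 (adjusted p 0.037). It was at 169 and 119 CPM in WT chow replicates 6 and 7 and at most 11.3 CPM in the other 28 libraries. Without those 2 libraries the interaction was 1.92 (adjusted p 0.24). The same libraries held 28.1 and 13.4 CPM of Il1b against at most 2.97 elsewhere, and the neutrophil list summed to as much as 179 CPM in WT on chow and at most 48.2 in the other groups. The part of these cells in the other interactions was not tested, but without both libraries 439 genes were called (114 positive and 325 negative), among them 265 of the 304.

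Over all 48 lists with a tested member, 20 held at least 1 called gene and 28 held none. Of the 598 genes on any list 6 were called positive and 23 negative (4.85%), against 2.14% of all genes, with a median interaction of 0.0329. Lists of other cell types that a fat pad holds gave 0 calls by edgeR for lymph node (13 tested, median 0.892, all above 0), T cells (11), mast cells (8), neutrophils (7), smooth muscle and pericytes (9), Schwann cells (10), skeletal muscle (13) and glandular epithelium (7). An unadjusted p under 0.05 was found for 2 neutrophil genes, 1 smooth muscle gene and 1 epithelial gene, and for 0 in the other 5 of these lists. The lymph node list moved with the groups, since 3 of the 4 libraries low in it were WT HFD. Without those 4 libraries 329 genes were called for the interaction, 42 positive and 287 negative, among them 221 of the 304.

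**Figure D4:**
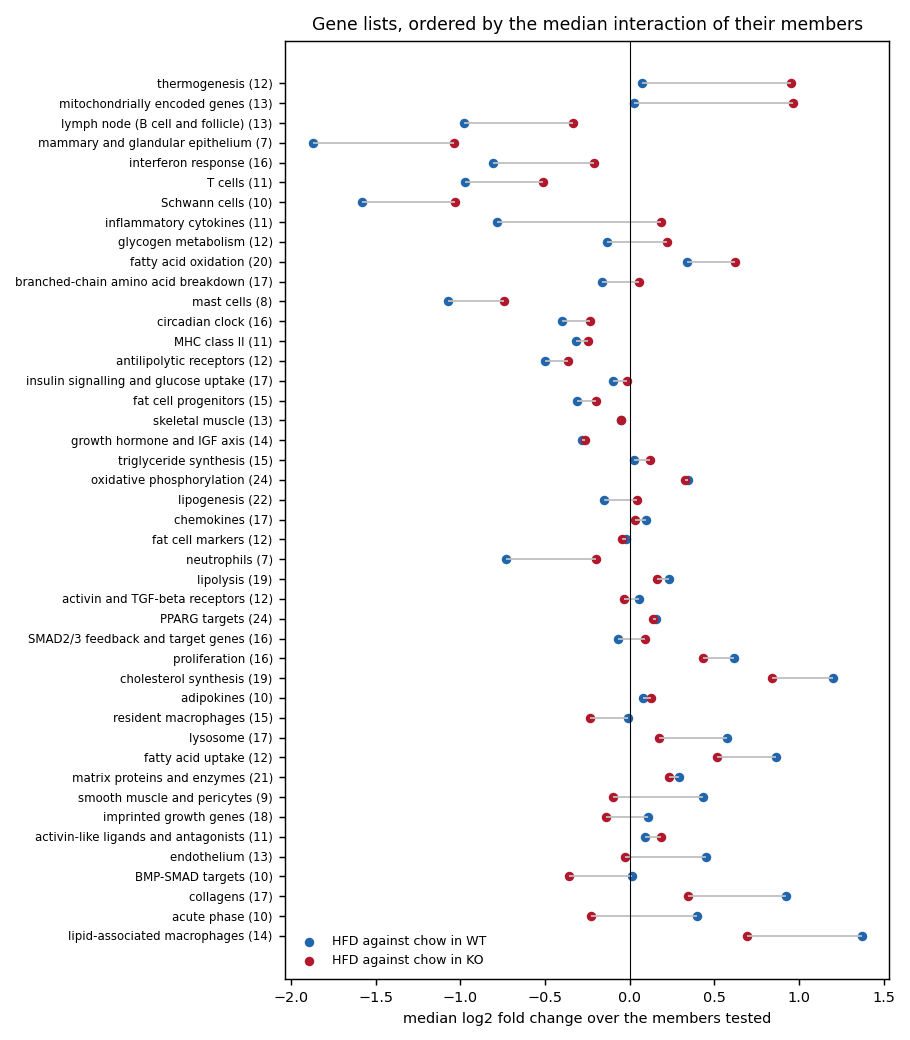
Median log2 fold change of HFD against chow in WT (blue) and in KO (red) over the tested members of each of 44 gene lists with at least 7 such members, whose number is in parentheses, ordered by their median interaction. Lipid-associated macrophages, collagens, BMP-SMAD targets and endothelium lie toward the end where KO is left of WT, and thermogenesis and the mitochondrially encoded genes at the other end.

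Of the 36 genes that differed between KO and WT on chow, 34 had the same sign on HFD, 30 were also called there, and 8 had a called interaction, against 2.14% of all genes tested. The difference on chow is itself a term of the interaction, so this share is a description only. Besides Pmepa1 and Orm1 these were Prps1, Kcne1l, Tfr2, Gm9696, Lrtm1 and Tmem45b. Prps1, a phosphoribosyl pyrophosphate synthetase, was at 82.5 to 179 CPM in WT and 68.2 to 85.9 in KO on chow, and at 244 to 393 in WT and 75.1 to 104 in KO on HFD (interaction −1.17 ± 0.18, adjusted p 0.000178). Tmem45b was lower in KO on chow, 76.2 to 126 against 128 to 327 CPM, and overlapped between the genotypes on HFD, at 427 to 626 and 390 to 628 CPM (1.16 ± 0.24, adjusted p 0.00589). Tfr2 changed sides: it was higher in KO on chow (5.30 to 7.52 against 1.47 to 4.40 CPM) and lower in KO on HFD (12.7 to 19.5 against 16.9 to 59.4 CPM).

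Several genes with large differences between KO and WT on chow had no called interaction. Mest, an imprinted gene that marks fat expansion, was at 13.3 to 60.5 CPM in WT and 1.35 to 3.56 in KO on chow, and at 972 to 1879 in WT and 12.0 to 84.7 in KO on HFD. HFD raised it by 5.24 in WT and 4.28 in KO, and the interaction was −0.96 ± 0.45 (adjusted p 0.306). For the transcription factor gene Klf14 the interaction was −1.87 ± 0.64 (adjusted p 0.128), for the imprinted Peg3 −1.58 ± 0.51 (adjusted p 0.102), for the choline transporter gene Slc5a7 1.00 ± 0.85 (adjusted p 0.614) and for Vnn1, a pantetheinase, 0.62 ± 0.38 (adjusted p 0.46). The SEs of 0.38 to 0.85 in these 5 genes set what was detectable.

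In epididymal fat the same interaction was called for 2487 of 15042 genes (16.5%, 1178 positive, 7.83%, and 1309 negative, 8.7%). Of the 249 negative genes of subcutaneous fat 245 were tested there, with a median of −0.228, and 61 were called negative and 1 positive. Of the 55 positive genes 19 were called positive and 0 negative, with a median of 0.754. Hp (−1.75), Ctsl (−1.25), Cers4 (−0.72), Cyp2e1 (4.41) and Nap1l5 (2.93) were called in the same direction in epididymal fat.

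The difference between the depots was tested directly and was called for 439 of 15480 genes (2.84%, 191 more positive in subcutaneous fat, 1.23%, and 248 more negative, 1.6%). Among the 249 negative genes 54 were called more negative in subcutaneous fat, and among the 55 positive genes 4 were called more positive. These genes were picked on the subcutaneous value that enters the difference, which favours a larger value there. Of the vessel genes described above, Cldn5, Ramp2, Icam2 and Mcam passed this test, and Egfl7, Esam, Tie1, Sox18 and Gja5 did not (adjusted p 0.0553 to 0.188). Of the matrix genes, Htra1, Fbln5 and Mrc2 passed, and Col4a2, Col15a1, Eln, Pcolce2, Adamts2, Plod2, Plod3, P3h1 and Htra3 did not (adjusted p 0.0528 to 0.854). Cldn5, Ramp2, Icam2, Mcam, Htra1 and Fbln5 differed by −1.39, −1.10, −1.08, −1.24, −0.98 and −0.93, with epididymal interactions of 0.34, 0.09, 0.14, 0.22, 0.13 and 0.15 that were not called. Oxtr was −2.45 in subcutaneous and −0.27 in epididymal fat (difference −2.17, adjusted p 0.0177). Ubd was −2.33 and −0.86 (difference −1.46, adjusted p 0.0227), and Id1 was −0.97 and 0.39 (difference −1.34, adjusted p 0.00687). The labels do not say which subcutaneous and epididymal libraries came from the same mouse, so the test treats them as independent.

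**Figure D5:**
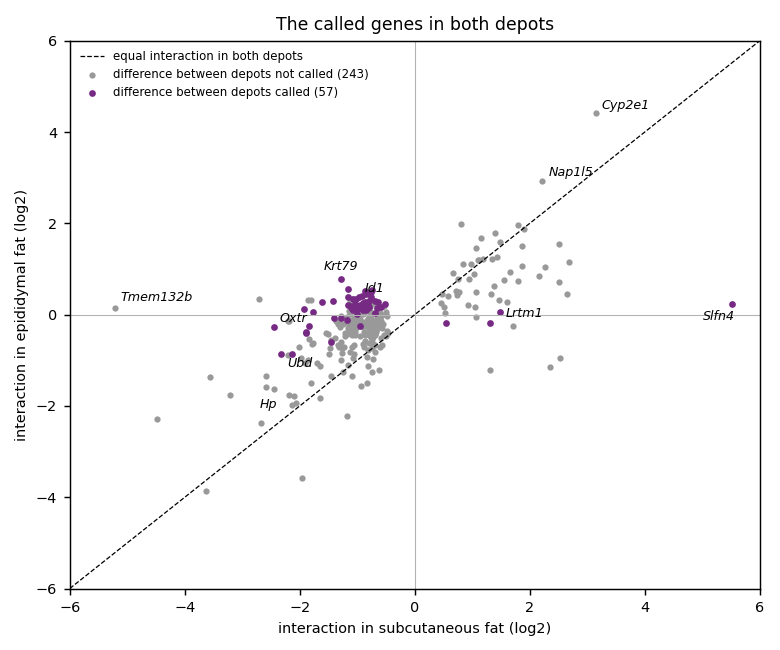
Interaction in epididymal fat (vertical axis, log2) against that in subcutaneous fat (horizontal axis, log2) for the 300 genes called in subcutaneous fat that have a value in both, with a dashed line at equal values. The 57 genes whose difference between depots was called are purple and the 243 others grey, and most purple points lie at negative subcutaneous and near-zero epididymal values.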

How the data were processed

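RNA was measured by sequencing of mRNA libraries made with a KAPA HyperPrep kit and adapters that carry molecular identifiers, per the labels' protocols. The authors deposited a table of estimated counts for each gene and library, mapped to mm10 per the submitters' processing notes. Not given in the sources used here are the aligner, the counting tool and whether molecular identifiers were used. Of the deposited values 2.93% were not whole (tolerance 1e-06), so all were rounded, although plain counts had been assumed when the tests were planned. Of 24475 gene IDs 24375 had a symbol in RefSeq's table for GRCm38.p6.

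Genes were kept by edgeR's filterByExpr (at least 10 counts in enough libraries and 15 in all), scaled with TMM factors, and then fitted with glmQLFit and glmQLFTest, 1 mean per group, over the 30 subcutaneous libraries (edgeR 4.0.16, R 4.3.3). CPM use the TMM-scaled library sizes unless given as before scaling or as a sum over a list. The epididymal libraries were fitted alone, and both depots together for the difference between them. No group was paired. The p-values measure the spread between these libraries. Alternatives were DESeq2 1.42.0, limma 3.58.1 (voom with quality weights), other scalings and filters, a block, a covariate and fits without chosen libraries. On simulated data with known changes in the interaction, 11.9% of 1.5-fold, 61.2% of 2-fold and 90.9% of 4-fold changes were called among 14220 genes. These were 8, 41 and 60 correct calls, beside 12 false calls. The share of false calls in this simulated set was thus above the 0.05 at which genes were called. The simulated data held no outlying libraries such as those described above.

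The comparison, the 49 gene lists and the named genes were chosen with earlier results of these data known. Named by rule were Inhbe, Acvr1c, the 12 genes of smallest p in each direction with a mean of at least 1 CPM, the 6 of largest size in each direction, up to 4 called members of each list (or 2 uncalled) and the 3 of smallest p in each diet pattern. Chosen after their values were seen were the receptor genes except Acvr1c, Acvrl1 and Lpar3, the lysosomal genes outside the list, Adamts2, Htra1, Htra3, P3h1, Pcolce2, Plod2, Plod3 and Fbln5, Sox18, Ramp2, Icam2, Mcam and Gja5, Lbp, Cfb, Pltp, Ppara, Idh3b, Prodh, Irf4, Met, H2-K1, Tapbp, Nlrc5, Hfe, Tfr2, Prps1, Kcne1l, Gm9696, Mest, Slc5a7, Vnn1 and Lep. A called member of the lysosome list is not reported here. Figures were drawn with matplotlib 3.10.9.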

Additional observations from a re-analysis of the deposited data

Results flagged for a closer look

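The interaction differed between subcutaneous and epididymal fat, by edgeR's test of the difference itself, for 18 of the named or added genes with a called interaction in subcutaneous fat. It was more negative in subcutaneous fat for the vessel genes Cldn5 (difference −1.39), Icam2 (−1.08), Mcam (−1.24) and Ramp2 (−1.10), for the matrix genes Fbln5 (−0.935), Htra1 (−0.978) and Mrc2 (−1.25), for the receptor genes Chrm4 (−4.20) and Oxtr (−2.17), for the innate defence genes Lbp (−1.49), Tril (−0.836) and Ubd (−1.46), and for Id1 (−1.34), the cathepsin gene Ctsf (−0.955) and the keratin gene Krt79 (−2.05). It was more positive there for Irf4 (1.52), Lrtm1 (1.44) and Slfn4 (5.28), the last of which rests on 2 WT chow libraries. Chrm4 was too low to be tested in epididymal fat alone, so no epididymal interaction stands beside its difference. The calls for Mrc2 and Tril were lost without a filter on low counts, those for Cldn5 and Ubd under limma-voom, those for Fbln5 and Icam2 under both, and that for Slfn4 under limma-voom and with a block.

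Among 33 genes looked at in 4 groups each, 11 of the 132 pairs held a library far from the rest of its group by Dixon's criterion, which chance alone gives in about 1 of 20. The highest library stood apart for Acvr1c (491 CPM) and Lrg1 (214 CPM) in WT chow replicate 1, Dio2 (7.76 CPM) in WT chow replicate 2, Elovl7 (5.17 CPM) and Pon1 (74.9 CPM) in KO chow replicate 5, and Cers4 (124 CPM) in WT HFD replicate 3. It also did for Lpar3 (13.4 CPM) and Ogdhl (7.11 CPM) in WT HFD replicate 6, Slfn4 (8.08 CPM) in KO HFD replicate 4 and Fam122b (20.6 CPM) in KO HFD replicate 6. The lowest library stood apart for Fam122b (8.59 CPM) in KO chow replicate 2.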

How the results depend on the processing

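The 304 interaction calls became 569 with DESeq2, 2500 with limma-voom and quality weights (1293 positive and 1207 negative), 642 with library totals alone (63 and 579) and 754 without WT HFD replicates 3 and 6 (175 and 579). The last 2 settings, and leaving out WT chow replicates 6 and 7, were chosen after the data were seen. In every setting all 304 kept their sign, which their being picked in these same libraries favours. Leaving out 1 library gave 198 to 548 interaction calls, 20 to 104 calls for KO against WT on chow, 2271 to 3258 on HFD, 5706 to 7003 for HFD in WT and 2387 to 4104 in KO. The 36 calls on chow became 114 with DESeq2, 272 with limma-voom, 62 with a covariate for lymph node transcript, 102 without the 4 libraries low in it, 64 without the 2 with liver transcript, 23 without WT chow replicates 6 and 7 and 165 without WT HFD replicates 3 and 6. They were 104 without WT chow replicate 1, 20 without KO chow replicate 2 and 83 without WT HFD replicate 6. Limma-voom called 5552 genes for KO against WT on HFD and 6836 for HFD in KO, for which library totals alone gave 5253 and the fit without WT HFD replicates 3 and 6 gave 5450. In epididymal fat limma-voom called 3945, and for the difference between depots it called 2362 and DESeq2 783.

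Library totals alone moved the median over all genes to −0.0713 for the interaction, −0.165 for KO against WT on HFD, −0.205 for HFD in WT and −0.297 for HFD in KO. They also moved the split of higher and lower calls to 482 and 3308, 2060 and 4777, and 733 and 4520 in the last 3.

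Same-numbered libraries of different groups did not deviate together (43 pairs, r from −0.392 to 0.494, 15 above 0.1, and 1 of 30 libraries closest to its own number), so the numbers were not taken to pair the samples. With the replicate number as a block 205 interactions and 23 differences on chow were called, and 1 of the 13 endothelial, 0 of the 13 mitochondrially encoded and 0 of the 17 collagen genes. A tally over 115 genes took in the 58 called genes named by rule and others, most of them chosen after their values were seen. In it 1138 gene values under the alternatives stayed on their side of the threshold, 114 lost the call and 13 gained it. The cause was not tested in any of these. Near the floor of 3 counts, depth limits the fold changes.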
